A study of Mus musculus with 6 samples.

Results

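The interferon regulatory factors (IRFs) are transcription factors that switch on interferon genes and the genes that interferon induces. The 8 genes described here, *Irf1*, *Irf2*, *Irf3*, *Irf4*, *Irf5*, *Irf7*, *Irf8* and *Irf9*, were taken by gene name from tables of 56884 genes, by a rule that uses no measured value but was set with earlier results of these data known. They were compared between PPARγ2 K382Q- and PPARγ2 K382R-overexpressing cells, and in K382Q cells *Irf7* fell by 74.2% while the level of *Irf1* differed by 8.72% and that of *Irf3* overlapped between the mutants. K382Q carries glutamine in place of a lysine, which mimics acetylated lysine, and K382R carries arginine, which mimics the deacetylated form (the sample labels write PPARr2 K382Q and PPARr2 K382R). RNA came from 1 mouse line of stromal vascular fraction (SVF) cells of subcutaneous white fat, with 3 biological replicates of each mutant at day 2 of beige adipocyte differentiation.

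In all 6 libraries the cells had been given isobutylmethylxanthine, indomethacin, dexamethasone, insulin, T3 and rosiglitazone, a PPARγ agonist. The line is immortalized, and the HA-tagged mutants were introduced with a retroviral vector and puromycin selection, so the endogenous gene was present as well. No library without a mutant was analysed here, and the sources used here do not say whether replicates came from separate transductions, so a p-value measures the spread between these samples. The aligned length of a library was estimated as the highest quotient of coverage and FPKM over genes above a low FPKM cutoff. After rounding, it equalled the 95th percentile of this quotient. It was 5.95 to 7.50 Gb in K382Q and 6.53 to 8.15 Gb in K382R libraries. The overexpressed gene, *Pparg*, had a TPM of 1333, 1164 and 1104 in K382Q and of 1590, 1632 and 1612 in K382R cells. These values do not separate the mutant from the endogenous gene. Both groups had *Pparg* at a high level, and it was lower in K382Q cells (log2 fold change -0.43, adjusted p = 0.000977, limma). Of 19 leukocyte markers, 17 were under a TPM of 0.5 in every library and 7 were listed at 0 in all 6, among them *Adgre1* and *Cd3e*, while *Ptprc* reached at most 0.0129. The summed TPM of this list was 11.6 to 12.8 in K382Q and 13.7 to 16.2 in K382R libraries, most of it from *Cd68* and *Cd14*. Of 10 adipocyte markers 9 were tested, of which 4 were lower and 3 higher in K382Q cells, beside 36.9% and 11.1% of all genes tested. With median-ratio scaling, explained below, 3 were lower and 5 higher, beside 20.4% and 19.9% of all genes. *Lep* was listed at 0 in all 6 libraries. The largest changes were those of *Adipoq* (-1.28), *Cebpa* (-0.81) and *Cd36* (0.43). Their summed TPM, 52818 to 56406 in K382Q and 44033 to 45189 in K382R libraries, was mostly *Fabp4*. The summed TPM of 6 adipocyte precursor markers was 461 to 507 in K382Q and 769 to 807 in K382R libraries, nearly all of it *Ly6a* (450 to 498 and 752 to 786), and all 3 that could be tested (*Pdgfra*, *Pdgfrb* and *Ly6a*) were lower in K382Q cells, beside 36.9% of all genes tested. The part of these marker differences in the values below was not tested.

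Cells sense viral or misplaced nucleic acids through receptors that activate the kinases TBK1 and IKKε. These kinases phosphorylate IRF3, which is made all the time, and IRF7, which is itself induced by interferon, and both then drive transcription of interferon genes. Secreted interferon acts through its receptor on STAT2 and IRF9, which are part of the complex ISGF3 that binds the interferon-stimulated response element (ISRE) of interferon-stimulated genes (ISGs). IRF1 is an activator that responds to type II interferon and IRF2 is its antagonist on shared sites, while IRF4, IRF5 and IRF8 are best known from immune cells. In fat, IRF3 is known as a brake on browning, IRF4 as a partner of PGC-1α in thermogenic gene expression, and IRF1 as a factor whose sites PRDM16 can occupy.

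The levels are given as TPM, a share of all transcripts that takes transcript length into account and has the same sum in every library. Genes were tested with limma on log2(TPM + 0.5), with Benjamini-Hochberg adjustment over 15426 genes, those that reached 0.5 TPM in 3 or more libraries. Of the 8 members, 6 passed this filter and were tested. A gene was called at an adjusted p-value under 0.05, and calls with a fold change over 2 were counted separately. At the first threshold 5 members were lower in K382Q cells and 0 were higher, beside 36.9% of all genes tested that were lower, 11.1% that were higher and 48.1% called in either direction. At a fold change over 2 there was 1 member, *Irf7*, beside 2.61% of all genes that were lower and 1.27% that were higher by as much. The 3 K382Q values lay below the 3 K382R values for 5 of the 6 tested members, *Irf1*, *Irf2*, *Irf5*, *Irf7* and *Irf9*, beside 42.8% of all genes that were lower without overlap, 14.1% that were higher and 57.0% in either direction. The median log2 fold change of the 6 tested members was -0.47 and that of all genes tested was -0.14. Because the median over all genes was below 0 on the TPM scale, the values were also computed with median-ratio scaling, which sets the median of all genes to 0.0039. With this scaling 4 members were lower and 0 were higher, beside 20.4% lower and 19.9% higher of all genes.

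**Figure D1:**
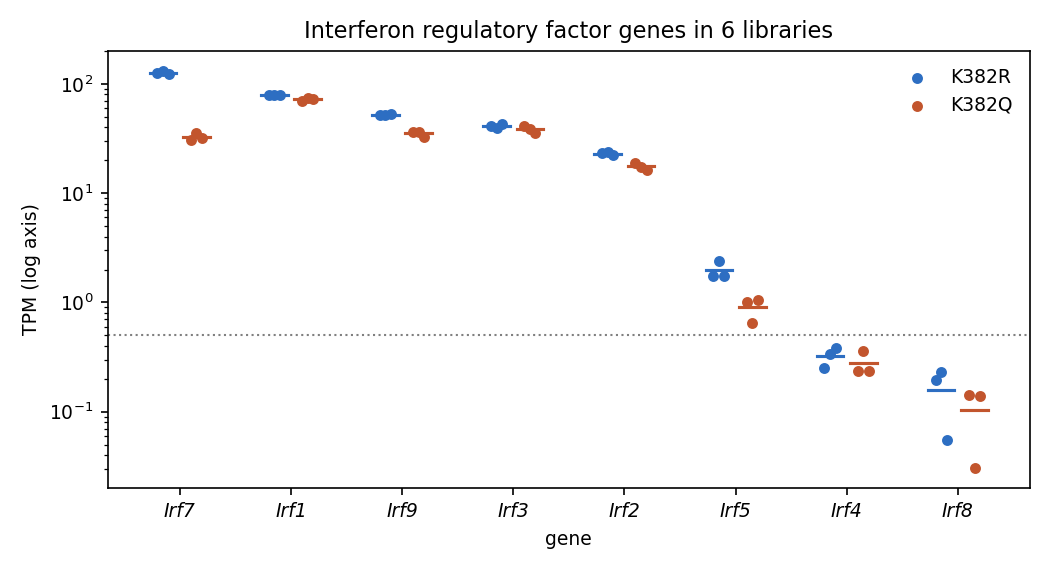
TPM of the 8 IRF genes on a log axis, with 1 point per library, a bar at each group mean (n = 3) and a dotted line at the filter of 0.5 TPM. *Irf7* separates the mutants most, at 122 to 132 against 30.5 to 35.6 TPM, while *Irf4* and *Irf8* lie below the line in all 6 libraries.

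*Irf7* encodes the interferon-induced factor that amplifies the type I interferon response. Its TPM was 30.5, 35.6 and 31.7 in K382Q cells and 125, 132 and 122 in K382R cells. The 3 values of each mutant lay close together and far from those of the other, without overlap. The mean was 32.6 ± 2.66 (SD, n = 3) against 126 ± 5.25 (SD, n = 3), and the mean in K382R cells was 3.88 times that in K382Q cells. The log2 fold change was -1.94 with a 95% confidence interval from -2.08 to -1.80 (adjusted p = 6.92e-07, limma with Benjamini-Hochberg adjustment). Among the 15426 genes tested, its log2 fold change ranked 39 from the lowest. The study also followed *Irf7* by qPCR in these cell lines, so the gene was singled out with its change known. The gene (ENSMUSG00000025498.16) spans 140842619 to 140846394 on the minus strand of chromosome 7 in GRCm39 and shares 45 bases with *Phrf1* on the other strand, whose log2 fold change was -0.25.

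Since the *Irf7* transcript differed most, the sequence before its start is shown. It is the part of the RefSeq promoter window, located in GRCm39 by exact match, that lies ahead of the first annotated exon (chr7:140846399-140846587, minus strand, 5′ to 3′).
Irf7: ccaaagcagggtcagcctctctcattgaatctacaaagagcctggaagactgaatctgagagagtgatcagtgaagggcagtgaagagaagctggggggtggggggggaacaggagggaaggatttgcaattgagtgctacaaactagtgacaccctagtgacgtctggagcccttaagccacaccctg
The 250 bases before each RefSeq start were searched on both strands for GAAA followed by any 2 bases and a second GAAA, the core of an ISRE, and for TTCNNNGAA, the core of the GAS element of type II interferon genes. The *Irf7* window held neither, so no letters are in capitals. The first motif was in 2.98% and the second in 7.02% of 32851 promoter windows of this length, and the 2 motifs can overlap each other.

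The genes whose profile over the 6 libraries was most like that of *Irf7* were *Ifit1*, *Ifit3* and *Oasl1*, all 3 of them antiviral ISGs. Likeness was the root mean square difference between centred log2(TPM + 0.5) profiles over 6 libraries, in a pool of 10639 genes whose mean TPM reached 5, and it was 0.0528, 0.0687 and 0.0728. The profiles follow the difference between the mutants above all, so likeness here means a fall of similar size. *Ifit1* had a mean of 24.9 against 94.6 TPM, *Ifit3* of 9.41 against 40.7, and *Oasl1* fell by 1.92 on the log2 scale. The ISRE letters were found 2 times before *Ifit1* and 2 times before *Ifit3*, on the strand opposite the gene, and not in the *Oasl1* window. These sites are shown with the matched letters in capitals and up to 10 bases on each side, read on the plus strand of chromosome 19, to set them beside the *Irf7* sequence.
Ifit1 at chr19:34618175-34618204: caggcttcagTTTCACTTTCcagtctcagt
Ifit1 at chr19:34618194-34618223: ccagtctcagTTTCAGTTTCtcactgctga
Ifit3 at chr19:34560763-34560792: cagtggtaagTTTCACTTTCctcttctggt
Ifit3 at chr19:34560797-34560826: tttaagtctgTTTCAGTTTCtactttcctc
A match describes the letters and not the binding of a factor.

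*Irf3* encodes the constitutive partner of *Irf7* downstream of TBK1. Its TPM was 41.1, 38.4 and 35.7 in K382Q cells and 41.3, 39.5 and 42.7 in K382R cells. The groups overlapped, since K382Q replicate 1 lay above K382R replicate 2. The log2 fold change was -0.10, with a 95% confidence interval from -0.24 to 0.04 (adjusted p = 0.198, limma), so a fall of more than 0.24 lies outside the interval. With median-ratio scaling or quantile normalization the sign turned, to 0.050 and 0.063. *Irf3* (ENSMUSG00000003184.16, chromosome 7, 44647072 to 44652272, plus strand) shares 1065 bases with *Bcl2l12* on the other strand, at 9.99 and 11.7 TPM in the 2 groups, and the library kit as named does not tell strands apart.

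*Irf7* was also set against *Irf3* within each library. The ratio of *Irf7* to *Irf3* TPM was 0.741, 0.927 and 0.888 in K382Q libraries and 3.03, 3.34 and 2.85 in K382R libraries. The ratio was lower in each K382Q library than in any K382R library, without overlap. The log2 ratio differed by -1.86 between the mutants, and the two-sided exact permutation test gave p = 0.1 (adjusted p = 0.1 over 3 ratios), the smallest value that 3 against 3 libraries allow. The ratio does not depend on the scaling of a library, but which gene is higher in K382Q cells depends on the transcript lengths behind the TPM. In TPM *Irf7* was below *Irf3* in all 3 K382Q libraries. Counted over the canonical transcript lengths it was at 25.9, 31.1 and 27.6 against 27.1, 26.4 and 25.7 TPM, above *Irf3* in 2 of the 3. By coverage per aligned Gb *Irf7* was above *Irf3* in all 6 libraries, so a change of rank between the mutants holds in TPM alone among these 3 measures.

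*Irf1* encodes an activator that type II interferon induces. Its TPM was 70.3, 73.7 and 72.1 in K382Q cells and 78.4, 79.7 and 78.6 in K382R cells. The groups did not overlap, and the difference was 8.72% of the K382R mean of 78.9 ± 0.647 (SD, n = 3), beside an SD of 1.69 in K382Q cells. The log2 fold change was -0.13 with a 95% confidence interval from -0.21 to -0.06 (adjusted p = 0.0118, limma). This is 0.0042 from the median of all genes tested, at the 50.5th percentile. The call depended on the scale, since *Irf1* had a log2 fold change of 0.021 with median-ratio scaling (adjusted p = 0.673), 0.033 with quantile normalization (0.468) and -0.05 with FPKM (0.287). Genes with the most similar profile were *Lsm1*, *Rpl8* and *Mark2*, none of them known as an ISG.

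*Irf1* (ENSMUSG00000018899.18) spans 53660841 to 53669200 on the plus strand of chromosome 11. The antisense gene *Gm17334* shares 3144 bases with it and had a TPM of at most 1.32. The window before the first RefSeq start of *Irf1* held the GAS letters, 90 bases ahead of that start, and not the ISRE letters. The site is shown because GAS is an element of the type II interferon response (plus strand of chr11:53660741-53660769, matched letters in capitals).
Irf1: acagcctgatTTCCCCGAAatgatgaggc

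*Irf2* encodes the antagonist of IRF1. Its TPM was 19.0, 17.5 and 16.3 in K382Q cells and 23.1, 23.7 and 22.2 in K382R cells. All 3 K382Q libraries were below the K382R libraries, and the mean was 23.6% lower. The log2 fold change was -0.38 (95% confidence interval from -0.53 to -0.23, adjusted p = 0.00191, limma). The ratio of *Irf1* to *Irf2* was 3.71, 4.22 and 4.42 in K382Q and 3.40, 3.37 and 3.54 in K382R libraries, without overlap and with a log2 difference of 0.26 (two-sided exact permutation p = 0.1, adjusted p = 0.1).

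The TPM of *Irf2* needs care when it is compared with other genes. For each gene, coverage times the length of all its exons, divided by FPKM and the estimated aligned length, gives an estimate of the mean length of the transcript models that the FPKM rests on. With exons of GENCODE mouse release 39, which may not be the release behind the tables, this length was 438 to 455 bases for *Irf2* in the 6 libraries. The canonical *Irf2* transcript has 2512 bases and its shortest annotated model 324. The implied length was 17.8% of the canonical one, a share at or below which 2.87% of 15372 genes lay, and the median gene was at 100.0%. Of the other tested members *Irf1*, *Irf7* and *Irf9* were at 103%, 85.9% and 103%, *Irf5* at 123% and *Irf3* at 68.6%. Counted over the canonical length, the same bases would give *Irf2* a TPM of 2.93 to 3.39 in K382Q and 4.03 to 4.19 in K382R cells. The depth behind the value was equivalent to 120 to 157 and 170 to 224 reads of 150 bases. With coverage per aligned Gb in place of TPM, the log2 fold change of *Irf2* was -0.26 and did not pass (adjusted p = 0.0997, limma).

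**Figure D2:**
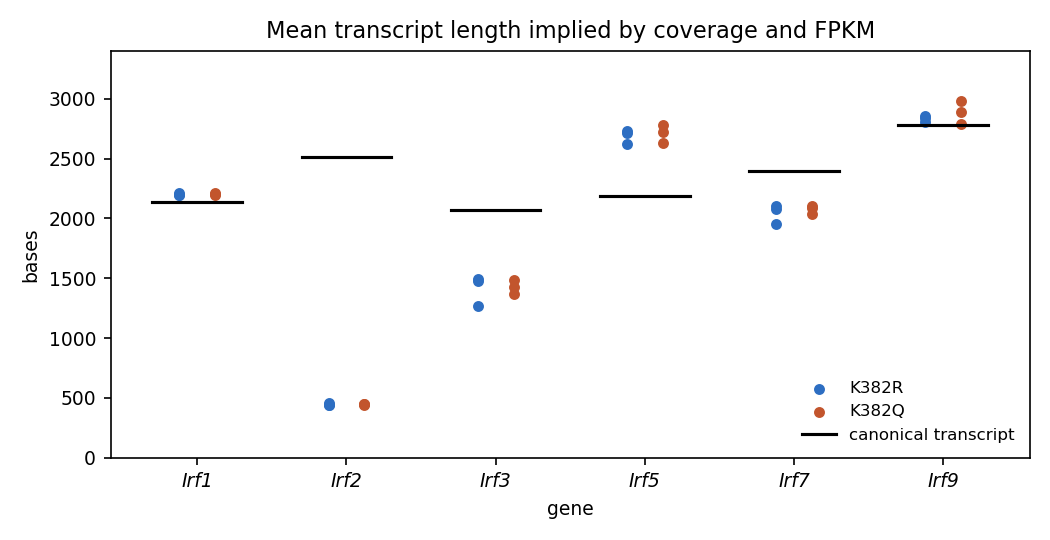
Mean transcript length in bases implied by coverage and FPKM for the 6 tested members, with 1 point per library and a black line at the length of the canonical GENCODE transcript. The *Irf2* points lie at 438 to 455 bases, below its line at 2512, while those of *Irf1* and *Irf9* lie near theirs.

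*Irf2* (ENSMUSG00000031627.10) spans 47192767 to 47300493 on the plus strand of chromosome 8. Its promoter window was the 1 among the 8 members that held the ISRE letters, and it held the GAS letters as well. Both sites are shown, on the plus strand, with the matched letters in capitals.
Irf2 ISRE letters at chr8:47192530-47192558: tggggaagtGAAAATGAAAttgacttttc
Irf2 GAS letters at chr8:47192546-47192574: aaattgacttTTCCGAGAAatgatgaaag
GAS letters were found in windows of 3 members, *Irf1*, *Irf2* and *Irf8*. The windows of *Irf3*, *Irf4*, *Irf5*, *Irf7* and *Irf9* held neither motif. Among all promoter windows, 2.98% held the ISRE letters and 7.02% the GAS letters, so most windows lack them.

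*Irf9* encodes the DNA-binding subunit of ISGF3. Its TPM was 36.5, 36.0 and 32.9 in K382Q cells and 51.9, 51.5 and 52.6 in K382R cells. The groups did not overlap and the mean was 35.1 ± 1.97 (SD, n = 3) against 52.0 ± 0.549 (SD, n = 3), 32.5% lower. The log2 fold change was -0.56 with a 95% confidence interval from -0.67 to -0.45 (adjusted p = 5.86e-05, limma), and between -0.59 and -0.40 over the alternatives. The gene (ENSMUSG00000002325.16) lies at 55841028 to 55847487 on the plus strand of chromosome 14 and shares 123 bases with *Rnf31* on the same strand, which did not pass the test (log2 fold change -0.15, adjusted p = 0.105, limma).

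*Stat2*, which encodes a partner of IRF9 in ISGF3, was lower as well. Its TPM was 27.8, 27.4 and 25.6 in K382Q and 49.6, 49.3 and 50.4 in K382R cells, a log2 fold change of -0.87 (adjusted p = 4.64e-06, limma). The ratio of *Irf9* to *Stat2* was 1.31, 1.31 and 1.28 in K382Q and 1.05, 1.04 and 1.04 in K382R libraries. *Stat2* thus fell further than *Irf9*, with a log2 difference of 0.32 in the ratio and no overlap (two-sided exact permutation p = 0.1, adjusted p = 0.1). Most similar to *Irf9* in profile were *Mapkapk2*, *Btg2* and *Qsox1*, with root mean square differences of 0.0244, 0.0248 and 0.0256.

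*Irf5*, which acts downstream of Toll-like receptors and MyD88 in myeloid cells, was rare. Its TPM was 1.02, 0.643 and 1.04 in K382Q cells and 1.76, 2.39 and 1.76 in K382R cells, so each K382R library was above each K382Q library. The log2 fold change was -0.82 (95% confidence interval from -1.25 to -0.39, adjusted p = 0.00773, limma). The size follows the pseudocount, being -0.64 with 1 and -1.06 with 0.1, and the log2 ratio of the mean TPM without one was -1.13. The mean coverage was 0.769 to 0.966 reads per base in K382Q and 1.69 to 2.88 in K382R libraries. *Irf5* (ENSMUSG00000029771.13, chromosome 6, 29526624 to 29541870, plus strand) shares 1045 bases with the abundant *Tnpo3* on the other strand, at 71.4 and 83.2 TPM (log2 fold change -0.22), and the part of *Tnpo3* reads in the *Irf5* values was not tested.

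*Irf4* and *Irf8*, known from lymphoid and myeloid cells, were below the filter. *Irf4* (ENSMUSG00000021356.11, chromosome 13, 30933209 to 30950959, plus strand) had a TPM of 0.237, 0.363 and 0.236 in K382Q and of 0.251, 0.338 and 0.381 in K382R cells. *Irf8* (ENSMUSG00000041515.11, chromosome 8, 121463097 to 121483433, plus strand) had 0.142, 0.0306 and 0.139 in K382Q and 0.194, 0.229 and 0.0553 in K382R cells. The groups overlapped for both genes. The coverage was equivalent to 14.9 to 29.0 reads of 150 bases for *Irf4* and to 2.03 to 15.9 for *Irf8*, so a difference could hardly be seen at this depth. Without the filter, the log2 fold change of *Irf4* was -0.08 (95% confidence interval from -0.36 to 0.19, adjusted p = 0.671, limma) and that of *Irf8* -0.12 (from -0.46 to 0.21, adjusted p = 0.593, limma). Both levels lie below the pseudocount of 0.5, which shrinks these values, and the log2 ratio of the mean TPM without it was -0.21 for *Irf4* and -0.62 for *Irf8*. Of 5 browning regulators 4 were tested, of which *Pparg* was lower and *Ppargc1a*, *Ucp1* and *Cidea* were higher, on both scalings, beside 36.9% lower and 11.1% higher of all genes (20.4% and 19.9% with median-ratio scaling). *Ppargc1a*, which encodes the partner of IRF4, rose from 1.78 ± 0.219 to 4.62 ± 0.363 TPM (SD, n = 3). *Prdm16* was below the filter and overlapped between the groups, at 0.138, 0.113 and 0.0564 TPM in K382Q and 0.0442, 0.0694 and 0.109 in K382R cells.

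**Figure D3:**
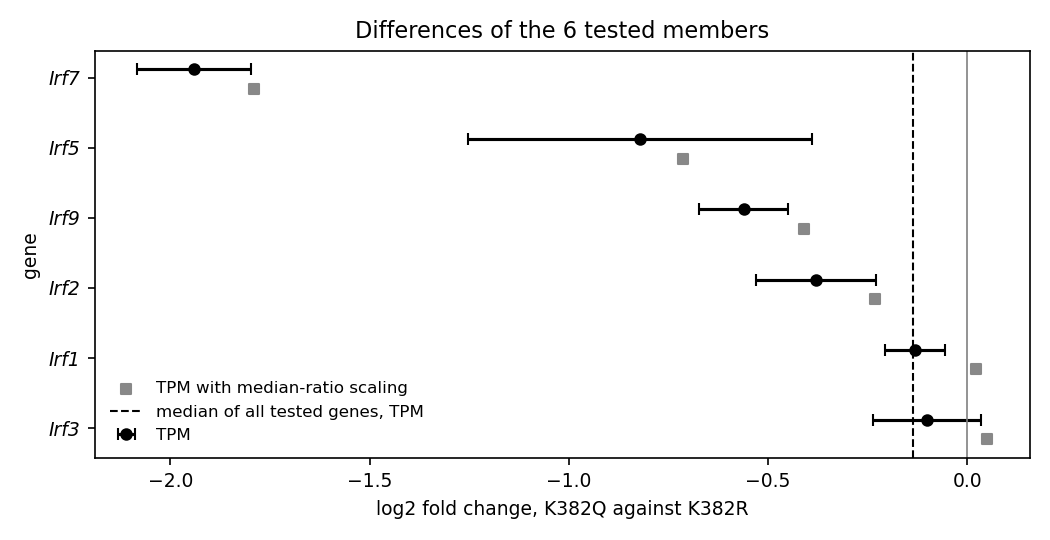
Log2 fold change of the 6 tested members in K382Q against K382R libraries (3 each), with 95% confidence intervals of limma as black points and bars, the values with median-ratio scaling as grey squares and the median of all tested genes, -0.14, as a dashed line. The order runs from *Irf7* at -1.94 to *Irf3* at -0.10, and *Irf1* and *Irf3* lie at the dashed line.

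The order of the levels in TPM differed between the mutants. In K382R cells it ran *Irf7*, *Irf1*, *Irf9*, *Irf3*, *Irf2*, *Irf5*, *Irf4* and *Irf8*, and no neighbours in this order overlapped in TPM. In K382Q cells *Irf1* came first, and *Irf3*, *Irf9* and *Irf7* followed with ranges of 35.7 to 41.1, 32.9 to 36.5 and 30.5 to 35.6 TPM, of which that of *Irf9* overlapped both others. Over canonical transcript lengths, *Irf9* came second in K382Q cells at 35.2 to 37.3, then *Irf7* at 25.9 to 31.1 and *Irf3* at 25.7 to 27.1 TPM, the last 2 overlapping. The place of *Irf3* among these genes thus depends on the length used. The summed TPM of the 8 members was 197 ± 6.19 (SD, n = 3) in K382Q and 324 ± 4.86 (SD, n = 3) in K382R cells. *Irf7* made up 15.3% to 17.6% of this sum in K382Q and 38.0% to 40.1% in K382R libraries, and 73.9% of the difference between the sums. Without *Irf7* the sums were 164 ± 5.28 and 198 ± 0.738 TPM (SD, n = 3).

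**Figure D4:**
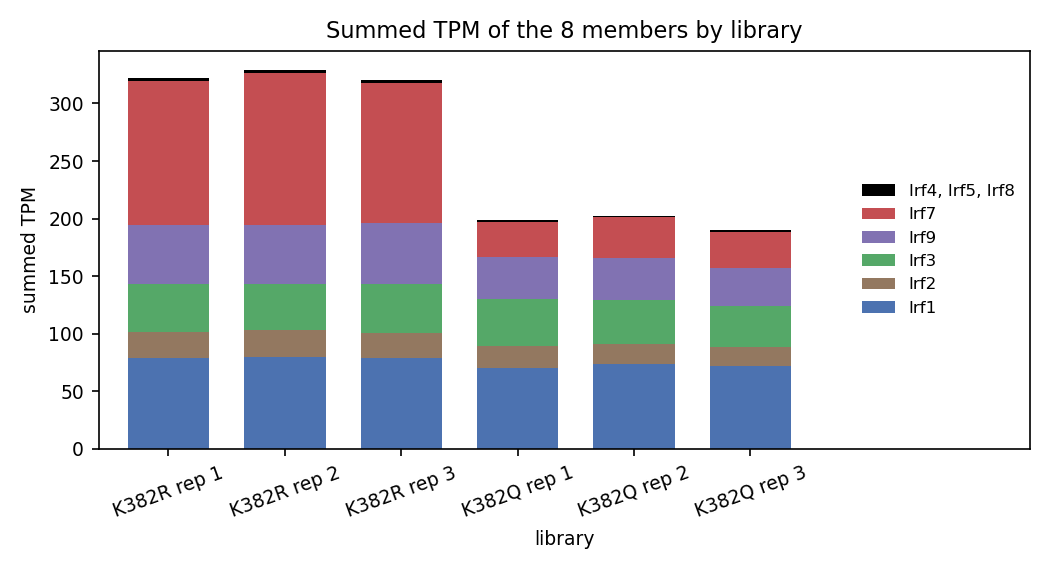
Summed TPM of the 8 members in each of the 6 libraries, stacked by gene, with *Irf4*, *Irf5* and *Irf8* as 1 segment. The sum is 320 to 329 in K382R and 190 to 202 in K382Q libraries, and the *Irf7* segment accounts for most of the difference.

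The genes around the IRFs were counted in lists that were drawn up by function, with earlier results of these libraries known. The 21 interferon genes listed were all under a TPM of 0.5 in every library and 16 of them were at 0 throughout. *Ifnb1*, the interferon that IRF3 and IRF7 induce first, was listed at 0 in the 3 K382Q libraries and at 0.0840, 0.117 and 0.141 TPM in the 3 K382R libraries. These values are far below the filter of 0.5 TPM, so *Ifnb1* was not tested and no difference between the mutants can be read from them. Of 10 tested interferon receptor, JAK and STAT genes, 9 were lower in K382Q cells and 0 higher, beside 36.9% and 11.1% of all genes, and the median log2 fold change was -0.33 beside -0.14 for all genes. With median-ratio scaling 6 of these 10 were lower, beside 20.4% of all genes. The receptor chain gene *Ifnar1* in this list had a log2 fold change of -0.40 (adjusted p = 0.000207, limma).

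Of 19 tested genes for sensors, adaptors and kinases upstream of IRF3, IRF5 and IRF7, 12 were lower and 0 higher, beside 36.9% lower and 11.1% higher of all genes. With median-ratio scaling 8 were lower and 1 higher, beside 20.4% and 19.9% of all genes. The list median was -0.35. The falls over 2-fold were those of 3 sensing genes, *Sting1* (-1.12), *Ifih1* (-1.05) and *Dhx58* (-1.02). *Tbk1* fell by 0.28 on the log2 scale and *Ikbke*, which encodes IKKε, by 0.59 (adjusted p = 0.00398 and 0.00157, limma). *Mavs*, the adaptor of the RNA sensors, had a log2 fold change of -0.04 and did not pass. Of 11 tested feedback inhibitors, 8 were lower and 0 higher, beside the same 36.9% and 11.1% of all genes, led by *Usp18* at -1.56, the protease that removes ISG15, then *Trim30a* at -1.36 and *Socs3* at -0.94. With median-ratio scaling 4 were lower and 2 higher, beside 20.4% and 19.9% of all genes, and the median on TPM was -0.29.

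Of 20 ISGs of the type I response, 18 were lower and 1 higher, beside 36.9% and 11.1% of all genes, and the median log2 fold change was -1.27, and the counts were the same with median-ratio scaling. The largest falls were those of the chemokine gene *Cxcl10* (-2.15), *Ifit3* (-2.05) and *Oasl1* (-1.92). *Isg20*, an exonuclease gene, was the 1 that rose, from 37.7 ± 2.58 to 73.0 ± 6.05 TPM (SD, n = 3), and *Mx1* did not pass, at a log2 fold change of -0.56 (adjusted p = 0.0778, limma). Of 17 tested genes listed as driven by IRF1 or by GAS elements, called type II genes here, 15 were lower and 0 higher. This stands beside 36.9% and 11.1% of all genes, and the list median was -0.62. With median-ratio scaling 13 were lower and 0 higher, beside 20.4% and 19.9% of all genes. The largest falls in this list were those of *Gbp5* (-1.79), *Cxcl9* (-1.73) and *Gbp3* (-1.44). *Irf1* itself had a log2 fold change of -0.13, and of 0.021 with median-ratio scaling. Which interferon or factor drives the listed genes in these cells was not tested. In bulk RNA a lower level in each cell and fewer cells that express a gene cannot be told apart.

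**Figure D5:**
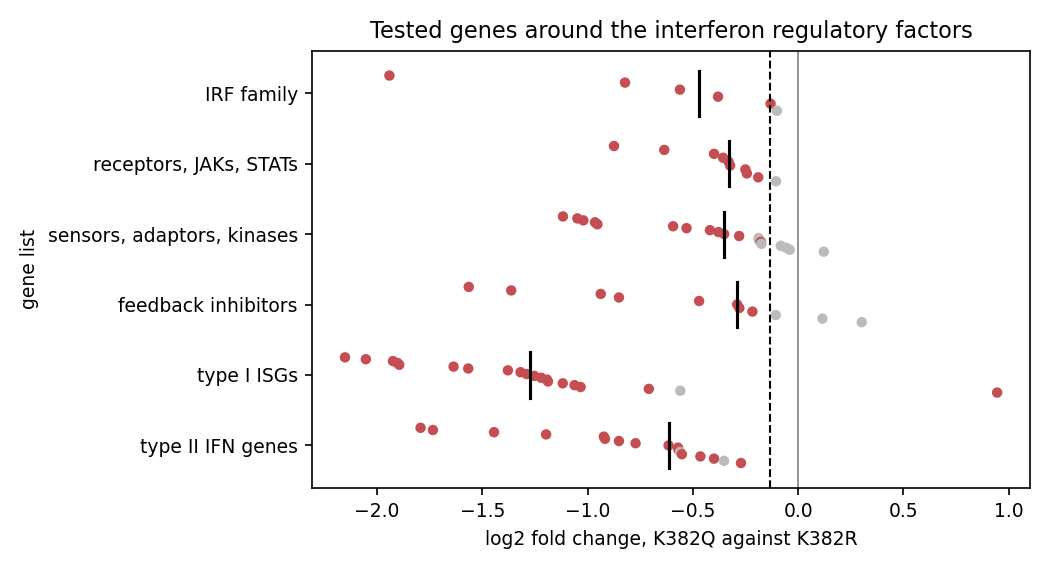
Log2 fold change in K382Q against K382R libraries of the tested genes in 6 lists, 1 point per gene, in red where the adjusted p-value of limma was under 0.05 and in grey where it was not. Black bars mark list medians, from -1.27 for type I ISGs to -0.29 for feedback inhibitors, and the dashed line marks the median of all tested genes, -0.14.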

How the data were processed

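RNA of 6 libraries, 3 per mutant, was sequenced as pairs of 150-bp reads. Per the study's methods, the authors trimmed the reads with TrimGalore, used HISAT2 for alignment to GRCm39 and StringTie for gene quantification, and they deposited 1 table per library. The deposited coverage is a signal, the mean read depth per base, without normalization. The deposited FPKM is scaled to length and aligned bases, and the deposited TPM also to a fixed sum, so both show shares of the RNA. The annotation release is not given in the sources used here. Entries of repeated gene IDs (3 to 5 per library) were summed.

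Log2(TPM + 0.5) values were compared between groups in limma 3.58.1 (R 4.3.3), with the variance trend on mean intensity. Ratios were compared with exact permutation tests in scipy 1.17.1. The fit was tested on simulated data. Pairs of libraries shared identical values in at most 0.0583% of tested genes, so each was counted as its own sample.

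The members, the gene lists and the tests were chosen with earlier results of these data known. Named genes are the 8 members, up to 3 genes with the largest changes of each list, *Stat2*, *Tbk1*, *Ikbke*, *Prdm16*, *Ppargc1a* and *Pparg*, and the 3 genes most similar in profile to *Irf1*, *Irf7* and *Irf9*. *Mavs*, *Mx1*, *Isg20*, *Ifnb1*, *Fabp4*, *Lep*, *Adgre1*, *Cd3e*, *Ptprc*, *Cd14*, *Cd68*, *Spi1*, *Ikzf1*, *Irf2bp2* and the genes overlapping a member were named after their values were seen. Some genes that the rule names are not reported here. All 8 members had promoter windows in RefSeq (GRCm38.p6), and coordinates are from exact matches in GRCm39. Settings tried instead were FPKM, median-ratio scaling, quantile normalization, a stricter filter (1 TPM) or none, pseudocounts of 0.1 and 1, array weights, no variance trend, a block for the replicate number and leaving out each library. Coverage per aligned Gb (pseudocount 0.05) was added after the data were seen.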

Additional observations from a re-analysis of the deposited data

How the results depend on the processing

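*Irf5*, *Irf7* and *Irf9* kept their direction and stayed past the threshold in all 17 alternatives, with log2 fold changes of -1.06 to -0.54, -2.0 to -1.79 and -0.59 to -0.40. *Irf2* did so in 16 and did not pass with coverage per aligned Gb. With FPKM and with coverage per aligned Gb, *Irf1* was at -0.05 each and did not pass (adjusted p = 0.287 and 0.249, limma). *Irf1* turned to 0.021 with median-ratio scaling and 0.033 with quantile normalization, and *Irf3* to 0.050 and 0.063, and neither passed there. These scalings bring the median of all genes from -0.14 close to 0. The number of members lower was 3 with coverage per aligned Gb, where 6631 of 15426 genes were called in either direction, against 7415 with TPM. A pseudocount of 0.1 brought the members past 2-fold to 2, with *Irf5*. The pathway lists are all lists but the IRF family and the cell type markers. They thus also hold the browning regulators, IRF2-binding proteins and blood cell partners of IRF4 and IRF8. Of 86 genes tested in them, 66 were lower and 4 higher with TPM (36.9% and 11.1% of all genes). The higher genes were *Ppargc1a*, *Ucp1*, *Cidea* and *Isg20*. The counts were 53 and 8 with median-ratio scaling (20.4% and 19.9%), 54 and 9 with quantile normalization, and 61 and 7 with coverage per aligned Gb. The calls among all 15426 genes, both directions together, were 6195 with quantile normalization and 6631 with coverage. The *Irf9* to *Stat2* log2 ratio differed by 0.34 with coverage, against 0.32. With each library left out, 5 members stayed lower, beside 6352 to 7026 of all genes called in either direction. The replicate numbers did not pair the libraries: the correlation of deviations was -0.0177, 0.0507 and 0.0223 for equal numbers, all under 0.1, and K382Q replicates 2 and 3 correlated best with their own number but replicate 1 with K382R replicate 3 (0.0389). With the replicate block, 5 members were lower, 1 was past 2-fold, and 6987 genes were called against 7415. The precision is that of 3 replicates, and low depth limits *Irf4* and *Irf8*.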

Other observations

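Transcripts of proteins that work with the IRFs outside the interferon pathway were also described. Of the 3 genes of IRF2-binding proteins, which act as corepressors with IRF2, *Irf2bpl* and *Irf2bp1* were lower in K382Q cells, with log2 fold changes of -0.52 and -0.34 (adjusted p = 0.00104 and 0.00154, limma), beside 36.9% lower and 11.1% higher of all genes tested. *Irf2bp2* had a TPM of 59.2 against 56.1, overlapped between the groups and did not pass, but with median-ratio scaling it was called higher, so that 2 genes were lower and 1 higher there. Of 9 partners of IRF4 and IRF8 in blood cells, 6 were under a TPM of 0.5 in every library, among them *Spi1* and *Ikzf1*, and 3 were tested. Of these, *Etv6* (-0.46) and *Tcf3* (-0.31) were lower, beside the same 36.9% of all genes, and with median-ratio scaling 2 were lower beside 20.4%.

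The ISRE letters (GAAA, any 2 bases, GAAA) stood in the promoter windows of 8 of the 16 type I ISGs and 5 of the 13 type II genes that had a RefSeq window, beside 3.46% of 27025 genes. The GAS letters stood before 4 of the same 16 and 2 of the same 13 genes, beside 8.13% of all genes. The ISRE letters stood before 11 of 20 interferon genes and 1 of the 8 IRF genes, and the GAS letters before 8 of the same 20 and 3 of the same 8. The type I ISGs were listed as genes that bear an ISRE, and the type II genes as genes driven by IRF1 or by GAS elements. A share of these letters above that of all genes was thus built into these lists, and the shares are a description only.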
